A study of Homo sapiens with 66 samples.

Results

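The genes followed here carry glucose into the cell and turn it into pyruvate and lactate. The 10 members were taken by gene name, with earlier results of these data known: the glucose transporters SLC2A1 and SLC2A3, the hexokinases HK1 and HK2, the upper glycolytic enzymes PFKL and ALDOA, the later enzymes PGK1, ENO1 and PKM, and the lactate dehydrogenase subunit LDHA. They are 10 of the 20167 genes in a table of read counts for 66 RNA-seq libraries in 22 groups of 3. The study compared inhibitors of prolyl-tRNA synthetase, the enzyme that loads proline onto its tRNA, in cultured myeloma cells after 6 h and 24 h.

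AMO1 is an established human myeloma line and gave 12 groups. L363-CFZr is a subline of the myeloma line L363 that resists the proteasome inhibitor carfilzomib (CFZ), and it gave 10 groups. Cells of each line received 1 µM NCP26, NCP22, halofuginone (HFG) or halofuginol, or the solvent DMSO, for 6 h or 24 h. CFZ was given only to AMO1, and its dose is not stated in the labels. NCP26 and NCP22 share a pyrazinamide scaffold, and HFG and halofuginol are derivatives of the plant alkaloid febrifugine. The labels name no engineered allele. The study names biological triplicates as its general rule, and its RNA-seq methods say only that conditions were run in triplicate. Nothing in the labels says that the 3 libraries of a group came from separate cultures. The p-values therefore measure the spread between these libraries, which may be technical.

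Glucose enters most cells through facilitative transporters and is trapped by hexokinase as glucose 6-phosphate. Phosphofructokinase commits the sugar to glycolysis, aldolase splits it, phosphoglycerate kinase and pyruvate kinase make ATP, enolase makes the substrate of pyruvate kinase, and lactate dehydrogenase A turns pyruvate into lactate while restoring NAD. Many of these genes are known targets of the hypoxia-inducible factors (HIF) and of MYC, and tumour cells, myeloma cells included, often express them strongly. Loss of charged tRNA is known to activate the amino acid response, which raises genes of serine synthesis, a branch that leaves glycolysis at 3-phosphoglycerate.

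Promoter sequences are shown for 4 members because these fell most with NCP26 and HFG in AMO1 at 6 h. RefSeq windows of 250 bases before to 50 bases after the start site were found for 9 of the 10 members, 19 windows in all (GRCh38.p14), and none was held for SLC2A3. Capitals mark the HIF core letters ACGTG on either strand. They occurred in 7 of the 19 windows, beside 21.4% of 35116 windows of all genes. These windows belong to 4 of the 9 members (HK2, ALDOA, PGK1 and LDHA). The E-box CACGTG, which contains ACGTG, occurred in 3 of the 19 windows beside 7.26% of all windows. The letters TGATGNAA, bound by the amino acid response factor ATF4, occurred in 2 windows of HK1 beside 3.62%. These HK1 windows overlap and hold the same site. The SLC2A1 window (chr1:42958819-42959118, minus strand) held none of these letters. HK2 and LDHA each had a further window that is not shown. That of HK2 (chr2:74834920-74835219) held ACGTG 4 times over both strands and CACGTG 2 times. That of LDHA (chr11:18396101-18396400) held none of these letters. The shown windows of HK2 (chr2:74833877-74834176, plus strand), PGK1 (chrX:78103998-78104297, plus strand) and LDHA (chr11:18394313-18394612, plus strand) follow that of SLC2A1.
SLC2A1: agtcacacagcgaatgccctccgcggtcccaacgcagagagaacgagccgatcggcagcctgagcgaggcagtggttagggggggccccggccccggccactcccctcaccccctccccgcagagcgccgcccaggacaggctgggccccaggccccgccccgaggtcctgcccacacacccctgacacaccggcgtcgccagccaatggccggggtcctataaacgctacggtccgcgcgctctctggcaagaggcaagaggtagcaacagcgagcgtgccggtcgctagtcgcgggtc
HK2: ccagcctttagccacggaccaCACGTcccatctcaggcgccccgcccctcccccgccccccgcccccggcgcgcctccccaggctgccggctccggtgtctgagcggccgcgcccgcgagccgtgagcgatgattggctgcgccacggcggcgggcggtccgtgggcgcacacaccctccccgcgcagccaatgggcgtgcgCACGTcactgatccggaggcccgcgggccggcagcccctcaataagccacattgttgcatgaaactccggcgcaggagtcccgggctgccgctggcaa
PGK1: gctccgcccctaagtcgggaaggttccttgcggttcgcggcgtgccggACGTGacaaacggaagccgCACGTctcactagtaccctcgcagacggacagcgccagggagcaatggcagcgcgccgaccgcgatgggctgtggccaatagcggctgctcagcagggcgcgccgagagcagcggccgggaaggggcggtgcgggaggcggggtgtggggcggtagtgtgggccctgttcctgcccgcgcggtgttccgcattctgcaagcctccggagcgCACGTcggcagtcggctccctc
LDHA: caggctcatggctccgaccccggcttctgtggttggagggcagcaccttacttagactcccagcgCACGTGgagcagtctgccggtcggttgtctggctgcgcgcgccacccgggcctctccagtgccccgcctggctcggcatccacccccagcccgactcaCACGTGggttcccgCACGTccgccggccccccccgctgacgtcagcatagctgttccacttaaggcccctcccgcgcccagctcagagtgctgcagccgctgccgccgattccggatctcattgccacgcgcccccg

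The library totals ran from 1666325 to 5761682 counts in AMO1 (median 3009496) and from 2487872 to 6596543 in L363-CFZr (median 3562784). Levels are given as CPM, counts scaled to one library total with edgeR's TMM factors over all libraries, and differences as log2 fold changes ± SE from edgeR's quasi-likelihood test, with p-values adjusted by Benjamini-Hochberg over all genes tested and called at 0.05. The 9 plasma cell markers summed to 4508 to 9979 CPM in AMO1 libraries and 4613 to 9588 CPM in L363-CFZr libraries, against 1.92 to 11.7 and 1.32 to 8.60 CPM for 15 markers of B cells, T cells, myeloid cells, red cells and fibroblasts, of which HBA1 was at 0 in every AMO1 library and CD3D in every L363-CFZr library. In these bulk samples fewer cells of a type and less RNA per cell cannot be told apart.

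Column names carry sample numbers that recur in 3 sets of 22 libraries. Set 1 held the AMO1 libraries of 6 h, the AMO1 DMSO libraries of 24 h and 1 CFZ library of 24 h. Set 2 held the other AMO1 libraries of 24 h and, from L363-CFZr at 6 h, DMSO, NCP26 and 2 NCP22 libraries, and set 3 held the rest of L363-CFZr. All AMO1 comparisons at 6 h and all L363-CFZr comparisons at 24 h therefore lie within a set. CFZ of AMO1 at 24 h and NCP22 of L363-CFZr at 6 h meet their DMSO libraries partly across sets. NCP26, NCP22, HFG and halofuginol of AMO1 at 24 h meet theirs only across sets, as do HFG and halofuginol of L363-CFZr at 6 h. For those that meet DMSO only across sets, compounds of the same set are also compared with each other. A model term for the set can be estimated in AMO1 only from the CFZ group of 24 h. In L363-CFZr it can be estimated only from the NCP22 group of 6 h. Each of these groups has 1 library apart from its other set, so results with that term lean on single libraries. The L363-CFZr DMSO library of 24 h replicate 2 stood apart from the other 2. Each reported count of called members that rests on that library is also given without it. It had counts in 14353 genes, beside 13564 and 13663 in replicates 1 and 3, which were deeper. For L363-CFZr at 6 h, NCP26 replicate 1 had counts in 14152 genes, beside 13677 and 13600 in the deeper replicates 2 and 3. In AMO1 at 6 h, NCP26 replicate 1 had counts in 15581 genes, beside 13577 and 13636 in replicates 2 and 3, which were deeper. Without it the same members passed for NCP26 against DMSO (9), against NCP22 (9), for the line difference at 6 h (4) and for the change between the times (7), and ENO1 and LDHA were added between NCP26 and HFG.

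Under DMSO, ENO1, ALDOA, PKM, LDHA and PGK1 were the most abundant members. Per kilobase of transcript at 6 h, AMO1 held 2495 ± 189.8 CPM of ENO1 (SD, n = 3), followed by ALDOA, PKM, LDHA and PGK1, the last at 505 ± 10.1 CPM per kilobase. PFKL (79.2 ± 0.796 CPM per kilobase), HK2 (42.8 ± 2.19), SLC2A3 (41.2 ± 0.707), SLC2A1 (19.9 ± 0.433) and HK1 (10.01 ± 1.01) stood far lower. Of neighbours in this AMO1 order, HK2 and SLC2A3 overlapped. In L363-CFZr at 6 h the order began with ALDOA at 2336 ± 145 CPM per kilobase, before ENO1 at 1828 ± 54.2, and ended with SLC2A3 at 6.73 ± 0.548 and HK1 at 0.

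**Figure D1:**
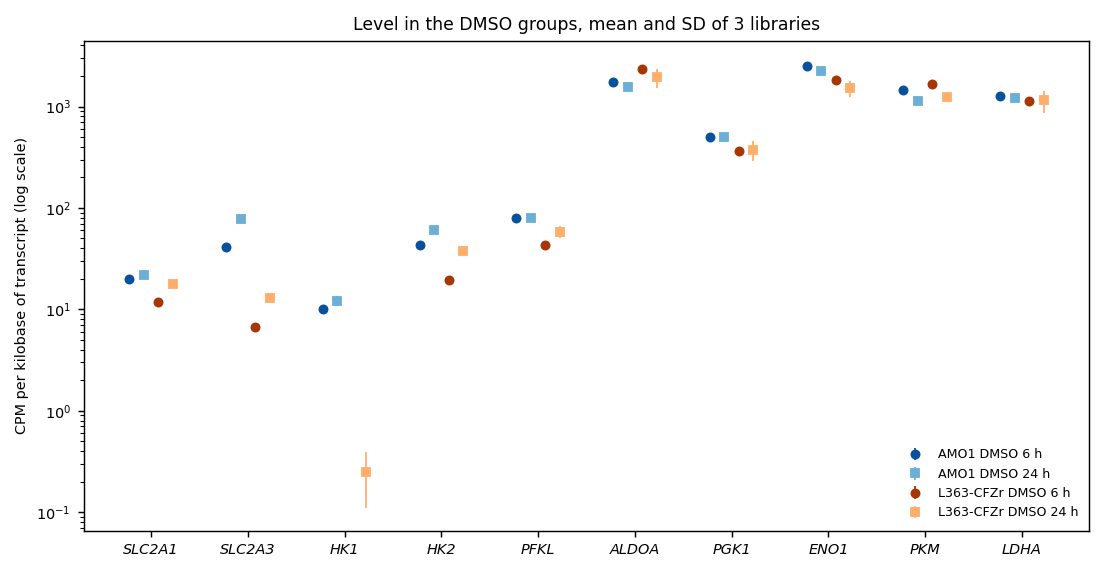
Level of each member in the DMSO groups as CPM per kilobase of transcript on a log axis, mean and SD of 3 libraries, circles for 6 h and squares for 24 h. AMO1 is blue and L363-CFZr orange. HK1 of L363-CFZr lies far below AMO1, and its 6 h group, at 0, is not drawn.

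The lines differed most in HK1 and SLC2A3. HK1 (ENSG00000156515, chr10:69269984-69401884, plus strand), the housekeeping hexokinase of many tissues, gave 13 to 193 counts in each AMO1 library. In L363-CFZr it gave 51 counts in all 30 libraries together, with a count in 20 of them and at most 6 in any. Against the floor of 3 counts over the L363-CFZr DMSO group of 6 h (0 of 11168742 counts, 0.282 CPM), the AMO1 mean of 36.04 CPM was at least 128-fold higher. Such floors cover counting error only. In the DMSO groups of 24 h, HK1 stood at 0.906 ± 0.515 CPM in L363-CFZr (SD, n = 3, 10 counts together). AMO1 then held 43.7 ± 4.91 CPM. HK1 did not pass the filter on low counts within L363-CFZr and was tested in AMO1 and between the lines, whereas the other 9 members passed in every comparison. SLC2A3 (ENSG00000059804, chr12:7919230-8019007, minus strand), the high-affinity transporter GLUT3, stood at 159, 159.6 and 155 CPM in AMO1 and 23.4, 26.6 and 27.3 CPM in L363-CFZr at 6 h, and shares 27.8% of its 31-mers with other genes, chiefly SLC2A14. The groups were far apart (-2.63 ± 0.101 log2, adjusted p = 7.7e-15).

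Besides HK1, which passed the filter only through AMO1, all 9 other members passed the threshold between the lines at 6 h, beside 60.2% of all genes tested. ALDOA (0.40) and PKM (0.15) were higher in L363-CFZr, and HK2 (-1.17), PFKL (-0.89), SLC2A1 (-0.79), PGK1 (-0.50), ENO1 (-0.47) and LDHA (-0.18) lower. PKM lost its call without AMO1 DMSO replicate 3 or L363-CFZr DMSO replicate 1 or 3. At 24 h, 4 of these 9 passed, all lower in L363-CFZr (SLC2A3, HK2, PFKL and ENO1), beside 39.9% of all genes. Without L363-CFZr DMSO replicate 2 all 9 passed, 3 higher and 6 lower, beside 65.0%, and without any 1 of the other 5 libraries SLC2A3 and HK2 passed. At each time the DMSO libraries of the lines lie in different sets, so line and set cannot be told apart here.

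From 6 h to 24 h in DMSO, AMO1 raised SLC2A3 from 159, 159.6 and 155 CPM to 307, 317 and 269.6 CPM (0.92 ± 0.0730 log2) and HK2 from 227, 251 and 244 CPM to 340.4, 353 and 337 CPM (0.52 ± 0.0645 log2). ALDOA (-0.17), ENO1 (-0.14) and PKM (-0.36) fell. These 5 of 10 members stand beside 46.5% of all genes, and 3 passed without DMSO replicate 1 of either time, ENO1 being lost without replicate 2 of either time as well. The pellets of 6 h were frozen overnight and those of 24 h kept on ice, so storage and time cannot be told apart.

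NCP26 lowered 9 of the 10 members in AMO1 within 6 h, by most in SLC2A1, HK2 and PGK1. SLC2A1 (ENSG00000117394, chr1:42925353-42958893, minus strand), which encodes the basal glucose transporter GLUT1, stood at 69.1, 66.5 and 66.6 CPM with DMSO and 13.7, 13.3 and 10.4 CPM with NCP26. HFG gave 12.7, 7.75 and 12.2 CPM. The NCP26 and HFG libraries overlapped each other and lay far below the DMSO libraries. SLC2A1 fell to 0.186 of the DMSO level with NCP26 (-2.43 ± 0.142 log2, adjusted p = 2e-07) and to 0.167 with HFG (-2.58 ± 0.147 log2, adjusted p = 1.6e-09).

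HK2 (ENSG00000159399, chr2:74834127-74893359, plus strand), the inducible hexokinase of many tumours, fell by a similar factor. Its libraries stood at 227, 251 and 244 CPM with DMSO, 51.3, 63.6 and 64.4 CPM with NCP26 and 52.6, 44.1 and 45.4 CPM with HFG. The treated libraries again lay together, well below DMSO (-1.99 ± 0.111 log2 with NCP26, adjusted p = 1.3e-07, and -2.32 ± 0.0896 with HFG, adjusted p = 1.4e-11). HK1 changed less, from 38.4, 31.8 and 37.9 CPM to 27.8, 28.7 and 31.2 CPM with NCP26 and 24.2, 25.1 and 23.3 CPM with HFG. Neither treated group overlapped DMSO, but only HFG passed the threshold (-0.54 ± 0.126 log2, adjusted p = 0.0018, against -0.29 ± 0.137 and adjusted p = 0.11 for NCP26).

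The second transporter, SLC2A3, moved little. Its libraries stood at 102, 137 and 121 CPM with NCP26 and 149, 157 and 161 CPM with HFG, beside 159, 159.6 and 155 CPM with DMSO. Only the NCP26 libraries lay below the DMSO range (-0.38 ± 0.112 log2, adjusted p = 0.017), and that call was lost without DMSO replicate 1 or 2. For HFG the log2 fold change was 0.022 with a 95% interval of -0.13 to 0.18.

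PGK1 (ENSG00000102144, chrX:77910739-78129295, plus strand), which makes the first ATP of glycolysis, stood at 2395, 2485 and 2407 CPM with DMSO, 812, 842 and 807 CPM with NCP26 and 720.0, 709.7 and 696 CPM with HFG. All 6 treated libraries were far below all 3 controls (-1.56 ± 0.0934 log2, adjusted p = 2.3e-07, and -1.74 ± 0.0492, adjusted p = 5.8e-13). LDHA (ENSG00000134333, chr11:18394560-18408425, plus strand) stood at 2786, 2946 and 2847 CPM with DMSO, 1672, 1513 and 1467 CPM with NCP26 and 1306, 1242 and 1242 CPM with HFG. PKM (ENSG00000067225, chr15:72199029-72231819, minus strand), the pyruvate kinase of most tissues other than liver and red cells, stood at 3496, 3524 and 3107 CPM with DMSO, 1842, 1789 and 1922 CPM with NCP26 and 1541, 1714 and 1620.5 CPM with HFG. In both genes the treated libraries lay below every control (LDHA -0.87 ± 0.0972 and -1.14 ± 0.0477, PKM -0.86 ± 0.0969 and -1.02 ± 0.0551 log2).

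Smaller falls were seen in PFKL (ENSG00000141959, chr21:44300051-44327376, plus strand), the liver-type phosphofructokinase subunit (-0.74 with NCP26 and -0.72 with HFG), in ALDOA (ENSG00000149925, chr16:30064164-30070457, plus strand), the muscle-type aldolase (-0.70 and -0.82), and in ENO1 (ENSG00000074800, chr1:8861000-8879190, minus strand), enolase 1 (-0.54 and -0.73). Log2 fold changes moved with the GC content of transcripts across genes (Pearson r = -0.37 for NCP26 and -0.32 for HFG, over genes, which are not independent replicates). With an offset for GC content the calls stayed, but PFKL became -0.45 and ALDOA -0.44 with NCP26, and PFKL -0.48 with HFG.

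Together, 9 members fell with NCP26, beside 19.2% of the 10666 genes tested that fell (37.3% changed either way), and 9 fell with HFG beside 26.6% (54.3% either way). The median over the 10 members was -0.80 log2 with NCP26 and -0.92 with HFG, where the median of all genes was -0.011 and 0.013. Both comparisons share the DMSO libraries. The 9 plasma cell markers moved too, 6 lower and 1 higher with either compound (medians -0.60 and -0.73 log2), and their part in the members' fall was not tested. The share of all counts taken by the 10 members was 1.59% ± 0.0559 (SD, n = 3) with DMSO, 1.01% ± 0.0273 with NCP26 and 0.899% ± 0.0132 with HFG.

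**Figure D2:**
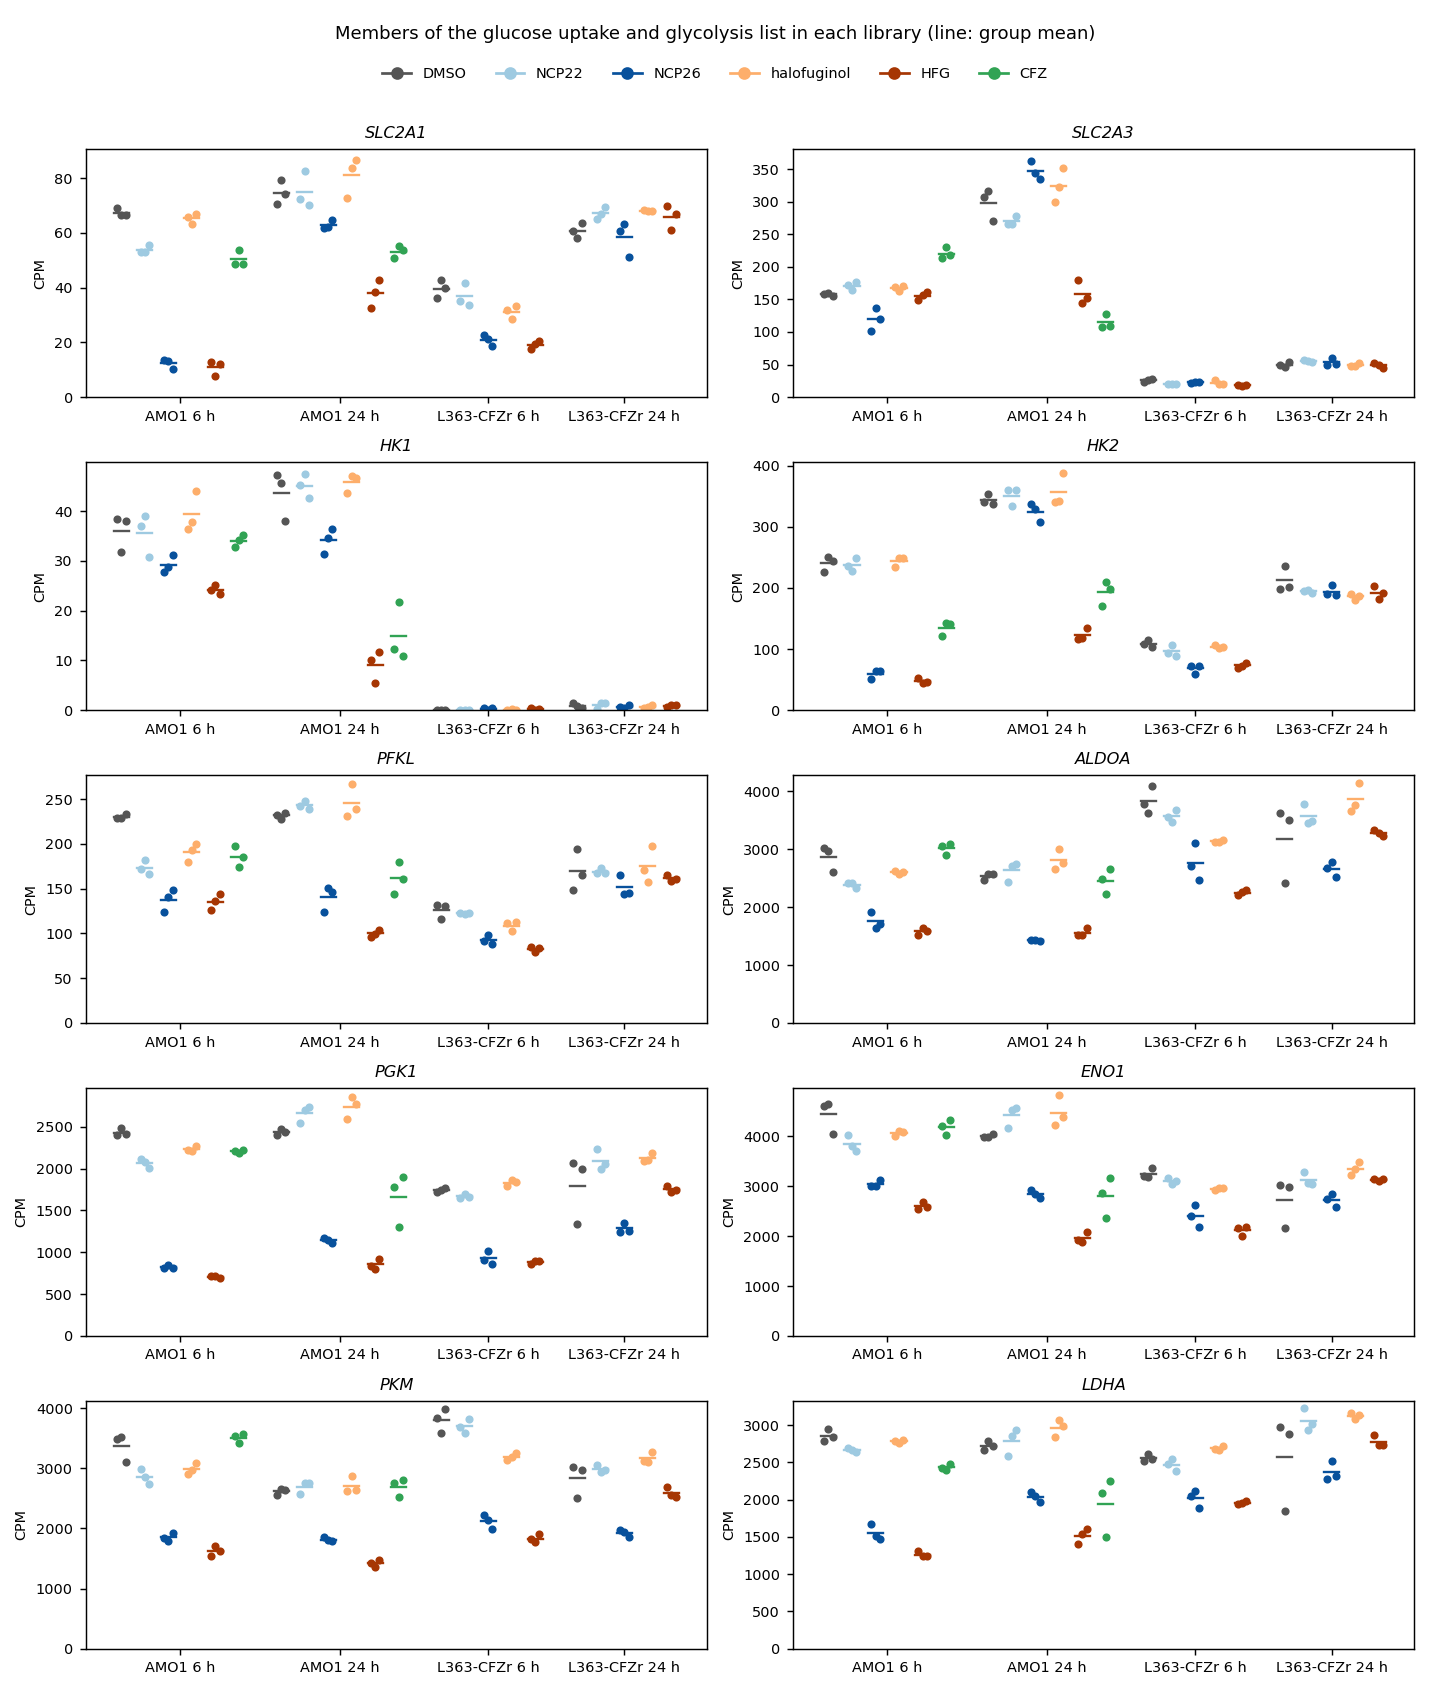
CPM of each member in each of the 66 libraries, with AMO1 and L363-CFZr at 6 h and 24 h from left to right. Points are libraries, lines are group means and colours are treatments. SLC2A1 and HK2 of AMO1 are lowest with NCP26 and HFG at 6 h, and at 24 h the NCP26 libraries lie near NCP22 and halofuginol while the HFG libraries lie below them.

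The scaffold partners moved the members much less in AMO1 at 6 h. With NCP22, SLC2A1 stood at 52.9, 53.1 and 55.5 CPM, HK2 at 236, 228 and 249 CPM and PGK1 at 2118, 2084 and 2001 CPM. The HK2 libraries overlapped DMSO, whereas those of SLC2A1 and PGK1 lay below it. In all, 6 members fell (SLC2A1, PFKL, ALDOA, PGK1, ENO1 and PKM), by -0.40 log2 in PFKL to -0.19 in ENO1, beside 6.08% of all genes. The calls were thin: 1 to 3 members passed without DMSO replicate 2 (1), DMSO replicate 1 (2) or NCP22 replicate 2 (3). SLC2A1 was lost without any 1 NCP22 replicate, and ENO1 without NCP22 replicate 3. With the offset for GC content only PGK1 (-0.32) and LDHA (-0.21) passed. The correlation with GC content was -0.51. Halofuginol left SLC2A1 at 65.9, 63.2 and 66.9 CPM. Of these libraries 2 lay below every DMSO library, and the difference had a 95% interval of -0.22 to 0.14 log2. Of the members PFKL (-0.26) and PKM (-0.17) passed, beside 3.62% of all genes. No member passed without DMSO replicate 1 or 2 or any 1 halofuginol replicate, and 5 passed without DMSO replicate 3.

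Compared directly, NCP26 lay below NCP22 in 9 of 10 members at 6 h, beside 12.2% of all genes (24.7% either way). SLC2A1 differed by -2.09 ± 0.138 log2 (adjusted p = 1.6e-06), HK2 by -1.96 ± 0.104 (adjusted p = 2.4e-07) and PGK1 by -1.31 ± 0.0888 (adjusted p = 1.8e-06). LDHA (-0.76), PKM (-0.60), SLC2A3 (-0.48), ALDOA (-0.42), PFKL (-0.31) and ENO1 (-0.31) also differed. PFKL and ENO1 lost their calls without NCP22 replicate 1 or 2, and ENO1 also without NCP26 replicate 2. HK1 did not pass (-0.25, 95% interval -0.54 to 0.031). HFG lay below halofuginol in 9 members, beside 26.1%, with SLC2A1 at -2.55 ± 0.135, HK2 at -2.36 ± 0.0735 and PGK1 at -1.64 ± 0.0374 log2. SLC2A3 was the member that did not pass between HFG and halofuginol (-0.075, -0.20 to 0.053).

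Between the compounds of different scaffold, NCP26 and HFG, no member passed at 6 h by edgeR's quasi-likelihood test, beside 0.260% of all genes. With p unadjusted, 6 members lay under 0.05, beside 1416 of the 10749 genes tested. DESeq2 called 1, SLC2A3 (-0.38 log2, adjusted p = 0.038). Without NCP26 replicate 1 the quasi-likelihood test called 2. The 95% interval of the difference was -0.32 to 0.68 log2 for SLC2A1, 0.084 to 0.61 for HK2 and 0.022 to 0.39 for PGK1.

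**Figure D3:**
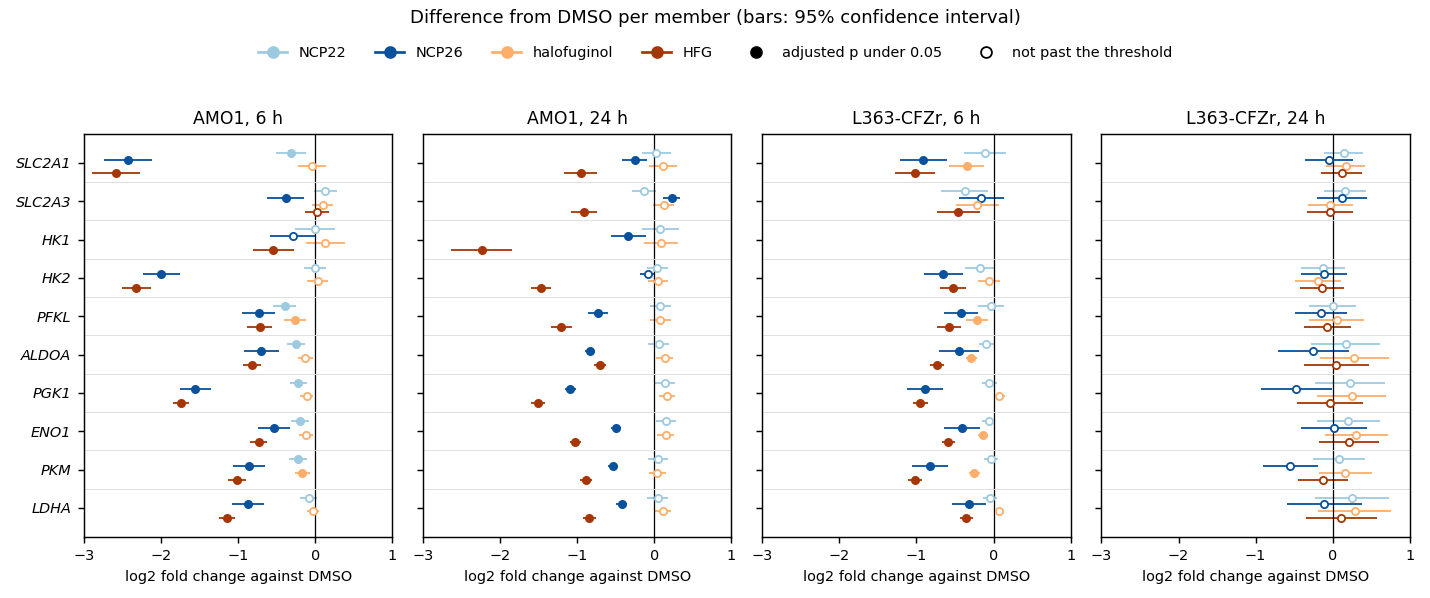
Log2 fold change against DMSO for each member with its 95% confidence interval, for 4 compounds in each line and time. Filled points have an adjusted p under 0.05. Within the AMO1 panel of 6 h, SLC2A1 and HK2 stand furthest left, below -1.9 with NCP26 and HFG. HK1 of AMO1 with HFG at 24 h also lies below -1.9. HK1 is not drawn for L363-CFZr, where it was not tested.

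CFZ, which blocks the proteasome, also lowered members in AMO1, and it raised SLC2A3 at 6 h. It was not compared directly with NCP26 or HFG. At 6 h, HK2 stood at 121, 143 and 141 CPM, below every DMSO library (-0.83 ± 0.0787 log2), and SLC2A1 at 48.6, 53.7 and 48.5 CPM (-0.43 ± 0.0982). SLC2A3 rose to 213, 229.7 and 218 CPM (0.48 ± 0.0704), above every DMSO library. With PFKL (-0.31), PGK1 (-0.14, lost without DMSO replicate 2 or any 1 CFZ replicate) and LDHA (-0.24), 6 members changed, beside 26.9% of all genes.

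At 24 h SLC2A3 had the opposite sign, a change between the times that was not tested, at 108, 128 and 109 CPM with CFZ beside 307, 317 and 269.6 CPM with DMSO (-1.35 ± 0.126 log2). HK1 stood at 12.3, 21.7 and 10.9 CPM beside 47.3, 45.6 and 38.1 CPM (-1.52 ± 0.2502). In all 7 members fell, the others being HK2 (-0.81), PGK1 (-0.53), PFKL (-0.50), ENO1 (-0.50) and SLC2A1 (-0.47), beside 27% of all genes called. Of these, 3 passed without DMSO replicate 2 or 3 or CFZ replicate 1, and 4 without DMSO replicate 1. The CFZ libraries of 24 h lie in 2 sets. With a term for the set LDHA stood at -0.37, but that fold in effect sets CFZ replicate 1 alone against DMSO.

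At 24 h in AMO1, SLC2A1 and HK2 with NCP26 stood close to the levels of its scaffold partner NCP22. PFKL, ALDOA, LDHA and the later enzymes lay further below NCP22. SLC2A1 stood at 61.7, 62.3 and 64.7 CPM with NCP26 and 72.5, 82.7 and 70.0 CPM with NCP22, both of set 2. HK2 stood at 338, 329 and 308 CPM and 360.0, 334 and 360.4 CPM. The HK2 libraries overlapped (-0.10 log2, 95% interval -0.24 to 0.043), and those of SLC2A1 were separated by a narrow margin (-0.26 ± 0.0918, adjusted p = 0.029), a call lost without any 1 NCP26 replicate or NCP22 replicate 2.

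SLC2A3 was higher with NCP26 than with NCP22 at 24 h. It stood at 363.2, 345 and 335 CPM with NCP26 and 266, 265 and 278 CPM with NCP22, without overlap (0.38 ± 0.0637 log2, adjusted p = 0.00022). PGK1 stood at 1174, 1142 and 1112 CPM with NCP26 and 2539, 2705 and 2739.5 CPM with NCP22, a wide gap (-1.21 ± 0.0567, adjusted p = 1.6e-09). ALDOA (-0.87 ± 0.0590), PFKL (-0.78 ± 0.0792), ENO1 (-0.63 ± 0.0561), PKM (-0.56 ± 0.0549), LDHA (-0.44 ± 0.0602) and HK1 (-0.40 ± 0.108) were lower too. Of the 10 members 1 was higher and 8 lower, beside 26.3% and 25.7% of all genes.

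The change of this difference between the times was tested directly, in a comparison chosen after the data had been examined. NCP26 against NCP22 at 24 h exceeded the same difference at 6 h by 1.87 ± 0.121 log2 in HK2 (adjusted p = 6.8e-08), 1.84 ± 0.154 in SLC2A1 (adjusted p = 9.5e-07) and 0.87 ± 0.125 in SLC2A3 (adjusted p = 0.00016). It went the other way in PFKL (-0.47), ALDOA (-0.44) and ENO1 (-0.30). For PGK1 the change was 0.11 with a 95% interval of -0.091 to 0.31, and for PKM 0.052 (-0.15 to 0.25). LDHA (0.32) passed narrowly and lost its call without 10 single libraries of 12, and ENO1 without 8. The 4 higher and 3 lower members stand beside 9.50% and 10.5% of all genes, and 4 members passed with an offset for GC content.

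All 10 members were lower with HFG than with halofuginol at 24 h in AMO1. SLC2A1 stood at 32.7, 38.5 and 42.8 CPM with HFG and 72.8, 83.7 and 86.6 CPM with halofuginol, of the same set. HK2 stood at 117, 119 and 134 CPM with HFG and 341, 343 and 389 CPM with halofuginol, and SLC2A3 at 179.6, 145 and 153 CPM and 299.5, 322 and 351 CPM. None of these groups overlapped, and the log2 fold changes were -1.06 ± 0.111, -1.52 ± 0.0770 and -1.02 ± 0.0831. HK1 differed most among the members, with 10.1, 5.38 and 11.6 CPM against 43.7, 47.1 and 46.7 CPM (-2.31 ± 0.186, adjusted p = 8.4e-09). PGK1 (-1.66), PFKL (-1.28), ENO1 (-1.17), LDHA (-0.95), PKM (-0.92) and ALDOA (-0.83) completed the 10 of 10 lower members, beside 28.7% of all genes.

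Between 6 h and 24 h the HFG difference changed in a member-specific way, again in a comparison chosen after the data had been examined. It shrank in SLC2A1 (1.5 ± 0.185 log2), HK2 (0.86 ± 0.109) and, narrowly, LDHA (0.18, lost without 7 single libraries of 12). It grew in HK1 (-1.61 ± 0.224), SLC2A3 (-0.93 ± 0.106), PFKL (-0.80 ± 0.103) and ENO1 (-0.53 ± 0.0633). For PGK1 the change was -0.013 with a 95% interval of -0.16 to 0.13. The 7 called members stand beside 35.4% of all genes.

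NCP26 and HFG, both of set 2, differed at 24 h in all 10 members, with 9 higher under NCP26 beside 22.6% of all genes (44.9% either way). The gap was widest in HK1 (1.88 ± 0.200 log2), HK2 (1.38 ± 0.0636) and SLC2A3 (1.12 ± 0.0693), and narrower in SLC2A1 (0.69 ± 0.103), ENO1 (0.52 ± 0.0330) and PGK1 (0.41 ± 0.0434). ALDOA alone was lower with NCP26 (-0.14 ± 0.0336). The member share of all counts was 1.13% ± 0.0260 with NCP26, 0.832% ± 0.0383 with HFG, 1.59% ± 0.0389 with NCP22 and 1.62% ± 0.0542 with halofuginol (SD, n = 3).

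Against the DMSO libraries of AMO1 at 24 h, which belong to the other set, NCP26 gave 9 called members, with SLC2A3 higher (0.22) and 8 lower, beside 60.7% of all genes. With a term for the set, estimated from the CFZ group alone, 5 passed: PFKL (-0.98), PGK1 (-0.95), ALDOA (-0.82), PKM (-0.51) and ENO1 (-0.47). SLC2A3 (0.062), SLC2A1 (-0.37), LDHA (-0.28) and HK1 (-0.77, also lost without NCP26 replicate 1) did not. HFG lowered all 10, beside 30.5%, from -2.24 in HK1 to -0.70 in ALDOA, also with that term. NCP22 called 0 members by edgeR's quasi-likelihood test and 0% of all genes. Unadjusted, 2 members lay under 0.05, beside 638 of the 10781 genes tested. DESeq2 called 0, and without NCP22 replicate 1 the quasi-likelihood test called 2. The intervals of the 10 members lay between -0.29 and 0.32 log2. Halofuginol called 0 members beside 0.183% of all genes. Unadjusted, 4 members lay under 0.05, beside 1129 of the 10943 genes tested. DESeq2 called the same number (PGK1, ENO1, ALDOA and LDHA, each up to 0.16 log2).

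**Figure D4:**
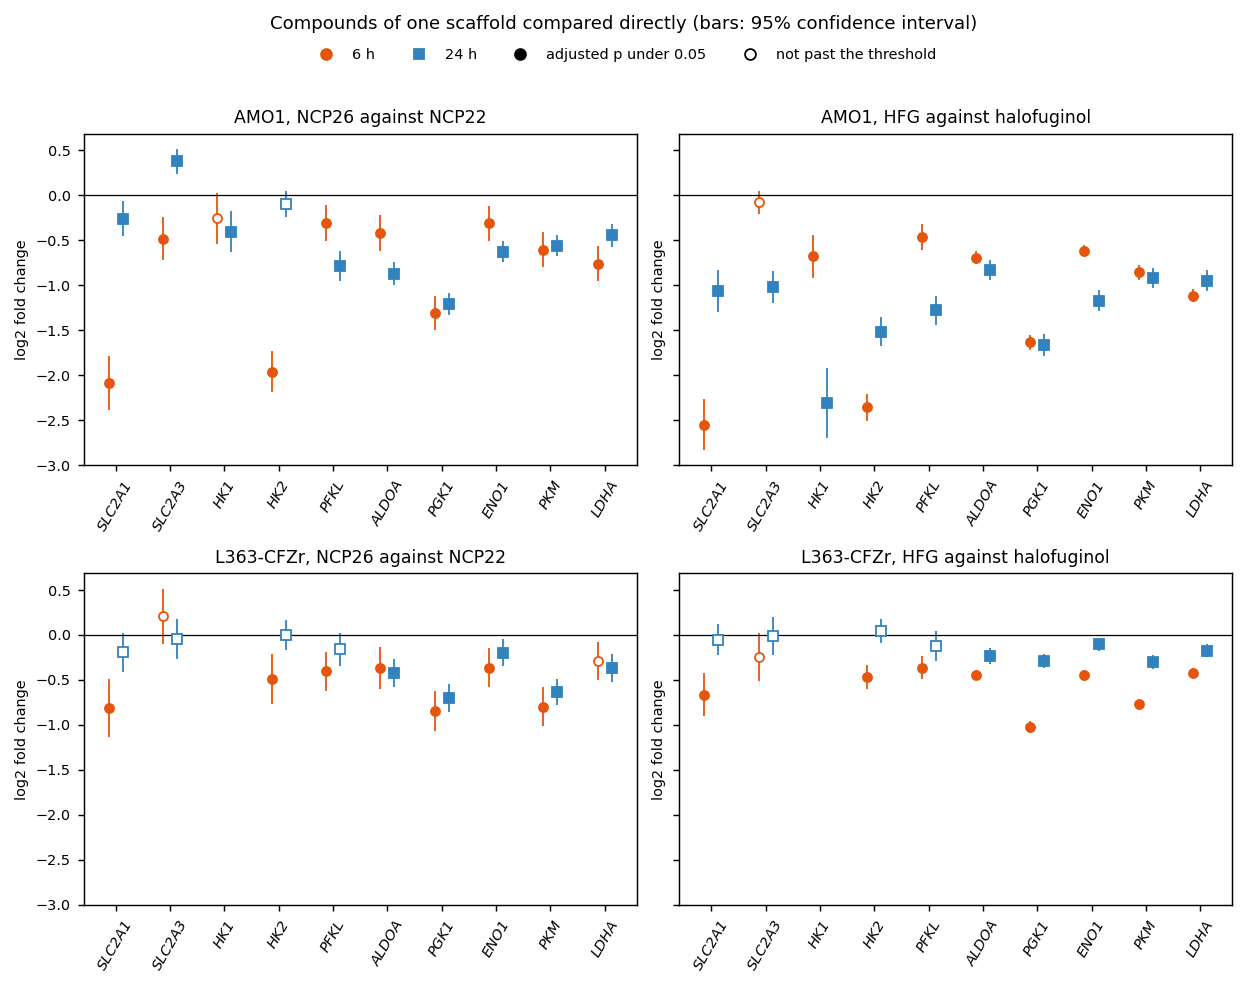
Log2 fold change of NCP26 against NCP22 (left) and of HFG against halofuginol (right) for each member in AMO1 (top) and L363-CFZr (bottom), with 95% confidence intervals, at 6 h (circles) and 24 h (squares). Filled symbols have an adjusted p under 0.05. SLC2A1 and HK2 of AMO1 lie near -2 with NCP26 at 6 h and near 0 at 24 h, whereas PGK1 of AMO1 is nearly level between the times.

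In L363-CFZr the members fell at 6 h as well, but SLC2A1 and HK2 by less than in AMO1. SLC2A1 stood at 36.2, 42.95 and 39.7 CPM with DMSO and 22.7, 21.2 and 18.5 CPM with NCP26. HK2 stood at 108, 115 and 104 CPM and 72.2, 59.7 and 72.4 CPM, and PGK1 at 1715, 1738 and 1768 CPM and 907, 1019.7 and 854 CPM. None of these groups overlapped, and the log2 fold changes were -0.91 ± 0.137, -0.65 ± 0.114 and -0.89 ± 0.104. With PKM (-0.82), ALDOA (-0.45), PFKL (-0.42), ENO1 (-0.41) and LDHA (-0.32), 8 of the 9 members tested fell, beside 8.99% of all genes. SLC2A3 did not pass (-0.16, 95% interval -0.45 to 0.13).

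The smaller falls of that comparison were fragile. Without DMSO replicate 1, DMSO replicate 3 or NCP26 replicate 1, 4 members passed, and without DMSO replicate 2, 5 passed. LDHA was lost without any 1 library other than NCP26 replicate 2. With the offset for GC content 5 passed, PFKL (-0.21), ALDOA (-0.25) and ENO1 (-0.28) being lost. The test of the difference between the lines called 4 members, all with the smaller fall in L363-CFZr: SLC2A1 (1.5 ± 0.191 log2, adjusted p = 0.00025), HK2 (1.33 ± 0.154, adjusted p = 8.7e-05), PGK1 (0.65 ± 0.131, adjusted p = 0.011) and LDHA (0.54 ± 0.131, adjusted p = 0.038, lost without 9 single libraries of 12). They stand beside 2.71% of all genes. Each line's fold lay within its own set.

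HFG lowered all 9 tested members of L363-CFZr at 6 h, beside 27.5% of all genes. SLC2A1 stood at 17.6, 19.5 and 20.3 CPM (-1.02 ± 0.124 log2), PGK1 at 857, 892 and 890.5 CPM (-0.95 ± 0.0456) and PKM at 1817, 1769.8 and 1902 CPM (-1.02 ± 0.0430), all below their DMSO libraries. These HFG libraries belong to another set than DMSO, and with a term for the set SLC2A3, HK2 and LDHA lost their calls. With the offset for GC content all 9 passed, but PFKL became -0.21 from -0.58, ALDOA -0.40 from -0.73, ENO1 -0.36 from -0.59 and LDHA -0.61 from -0.35. Against halofuginol, of the same set, 8 members were lower, beside 24.2%, from -1.03 ± 0.0317 in PGK1 and -0.77 ± 0.0300 in PKM to -0.36 ± 0.0620 in PFKL. SLC2A3 did not pass (-0.25, -0.51 to 0.018).

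NCP22 called 0 members of L363-CFZr at 6 h by edgeR's quasi-likelihood test and 0% of all genes. Unadjusted, 1 member lay under 0.05, beside 666 of the 10235 genes tested, and DESeq2 called 0. Halofuginol lowered 5 members, SLC2A1 (-0.35), ALDOA (-0.29), PKM (-0.25), PFKL (-0.21) and ENO1 (-0.14), beside 12.2%. None passed with a term for the set or with the offset for GC content, with which log2 fold changes correlated at -0.72 across genes, and 3 passed without halofuginol replicate 1 or 2. NCP26 lay below NCP22 in 7 members, beside 10.4%: PGK1 (-0.84), SLC2A1 (-0.81), PKM (-0.80), HK2 (-0.49), PFKL (-0.40), ALDOA (-0.37) and ENO1 (-0.36). In that pair 3 passed without NCP22 replicate 1 or 2, and 4 without NCP26 replicate 1 or 3 or NCP22 replicate 3, the library of the other set.

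At 24 h in L363-CFZr the later enzymes and ALDOA differed between compounds of 1 scaffold, while SLC2A1, SLC2A3, HK2 and PFKL did not pass the threshold. HK2 stood at 189.7, 205 and 188 CPM with NCP26 and 195, 196 and 192 CPM with NCP22. SLC2A1 stood at 60.8, 63.3 and 51.2 CPM and 65.2, 66.8 and 69.5 CPM. The HK2 groups overlapped (0.0026 log2, 95% interval -0.16 to 0.17). The SLC2A1 groups did not overlap but did not pass the threshold (-0.19, -0.41 to 0.023).

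PGK1 stood at 1247, 1353 and 1249.5 CPM with NCP26 and 2229, 1992 and 2050.0 CPM with NCP22, well apart (-0.70 ± 0.0748, adjusted p = 7.7e-06). PKM (-0.64 ± 0.0682), ALDOA (-0.43 ± 0.0725), LDHA (-0.37 ± 0.0733) and ENO1 (-0.20 ± 0.0716, lost without 5 single libraries of 6) were also lower, 5 members in all beside 17.9% of all genes. HFG lay below halofuginol in the same 5 genes, beside 12.3%, by less: PKM -0.30 ± 0.0367, PGK1 -0.28 ± 0.0367, ALDOA -0.24 ± 0.0418, LDHA -0.17 ± 0.0324 and ENO1 -0.10 ± 0.0346 log2, the last lost without 5 single libraries of 6. NCP26 lay below HFG in these 5, beside 7.43% (ENO1 was lost without HFG replicate 2 or 3), with PGK1 at -0.44 ± 0.0464, PKM at -0.42 ± 0.0441 and ALDOA at -0.30 ± 0.0432. With all groups of the line in one fit ENO1 was lost in each of these pairs, only PKM passed between HFG and halofuginol, and only PGK1 and PKM between NCP26 and HFG.

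Against DMSO at 24 h the L363-CFZr results turned on 1 control. PGK1 stood at 2062, 1332 and 1989.9 CPM and ALDOA at 3624, 2415 and 3501 CPM in DMSO replicates 1, 2 and 3, and LDHA at 2982, 1852 and 2883 CPM. Replicate 2 was the low library in each. With it, NCP26 called 0 members by edgeR's quasi-likelihood test beside 7.09% of all genes. Unadjusted, 2 members lay under 0.05, beside 2443 of the 10676 genes tested, and DESeq2 called 1 (PKM at -0.55). HFG called 0 beside 1.17%. Unadjusted, 0 members lay under 0.05, beside 1735 of the 10469 genes tested, and 0 passed by DESeq2. Without it, NCP26 lowered 4 members, PGK1 (-0.65), PKM (-0.63), ALDOA (-0.42) and LDHA (-0.30), beside 28.6% of all genes called. HFG then lowered 3, PKM (-0.21), PGK1 (-0.21) and ALDOA (-0.11), beside 19.5%. NCP22 and halofuginol called 0 members and 0% of all genes both ways by edgeR. With replicate 2, 0 and 0 members lay under 0.05 unadjusted, beside 213 and 410 of all genes tested. By DESeq2, 0 and 0 passed.

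The lines differed at 24 h in how far HFG lowered the members. The HFG fold against DMSO was higher in L363-CFZr than in AMO1 in 9 members, beside 8.06% of all genes, by 1.47 ± 0.191 log2 in PGK1, 1.33 ± 0.141 in HK2, 1.23 ± 0.165 in ENO1, 1.13 ± 0.146 in PFKL and 1.07 ± 0.151 in SLC2A1. The AMO1 fold of this comparison crosses sets. Without L363-CFZr DMSO replicate 2 these 9 passed, beside 33.4% of all genes called in either direction, a share unlike the 8.06% that were higher. Taken within sets against halofuginol, a comparison chosen after the data had been examined, the same 9 passed, beside 35.7% called in either direction. HK2 stood at 1.57 ± 0.101, PGK1 at 1.39 ± 0.0692 and ENO1 at 1.08 ± 0.0658. HK1 passed the filter only through AMO1 and is left out of these counts, having 8 counts in the L363-CFZr group with HFG and 6 in that with halofuginol. For NCP26 against DMSO the line difference called 0 members at 24 h by the quasi-likelihood test beside 5.41%. Unadjusted, 4 members lay under 0.05, beside 2464 of the 11239 genes tested, and DESeq2 called 4. Without L363-CFZr DMSO replicate 2 the line difference called 4, beside 21.1% of all genes: PFKL (0.65), PGK1 (0.41), ALDOA (0.39) and ENO1 (0.34). Against NCP22 it called 5, beside 16.4%: PFKL (0.63 ± 0.115), PGK1 (0.52 ± 0.0886), ALDOA (0.45 ± 0.0885) and ENO1 (0.44 ± 0.0853) fell by less in L363-CFZr, and SLC2A3 differed the other way (-0.41 ± 0.115).

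Over all treatments and times the group means of SLC2A1 in AMO1 ranged from 10.9 CPM with HFG at 6 h to 81.0 CPM with halofuginol at 24 h, 7.45-fold, and those of HK2 7.55-fold. ENO1 had a range of 2.28-fold in AMO1 and 1.58-fold in L363-CFZr, where SLC2A1 ranged 3.56-fold. The AMO1 group means of PFKL ran from 100.1 CPM with HFG at 24 h to 246 CPM with halofuginol at 24 h. Those of ALDOA ran from 1429 CPM with NCP26 at 24 h to 3016 CPM with CFZ at 6 h, and those of PKM from 1418 CPM with HFG at 24 h to 3509 CPM with CFZ at 6 h. In each of these genes the lowest mean belonged to NCP26 or HFG. SLC2A3 of AMO1 was an exception, lowest with CFZ at 24 h (115 CPM) and highest with NCP26 at 24 h (348 CPM). Reads of near-identical copies may be split between genes, since ALDOA shares 43.03%, HK2 15.9%, PGK1 12.6% and LDHA 11.1% of its 31-mers with other annotated genes. With genes that have counts here the shares were 4.21% for ALDOA, 0.0% for HK2, 6.42% for PGK1 and 2.52% for LDHA.

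Other enzymes of the pathway, from a list of 19, also fell. In AMO1 at 6 h, 10 of the 12 tested fell with NCP26 against DMSO and none rose (median -0.64 log2), beside 19.2% of all genes that fell, led by the aldolase ALDOC (-1.55), the platelet-type phosphofructokinase PFKP (-1.10) and the enolase ENO2 (-0.95). Against NCP22, 9 of 12 were lower at 6 h, beside 12.2% of all genes, and 9 at 24 h, beside 25.7%, again led by ALDOC (-1.89 at 24 h), then GAPDH (-1.13) and the phosphohexose isomerase GPI (-1.0). In L363-CFZr at 24 h, 10 of 12 were lower with NCP26 than with NCP22, beside 17.9%, led by ALDOC (-1.19), PGAM1 (-0.68) and GAPDH (-0.55), and 8 of 12 with HFG against halofuginol, beside 12.3%.

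Of 4 tested enzymes that set fructose 2,6-bisphosphate, the activator of phosphofructokinase, 2 fell with NCP26 against DMSO in AMO1 at 6 h, beside 19.2% of all genes: PFKFB4 (-2.94) and PFKFB3 (-2.26). At 24 h against NCP22 both were lower (-0.99 and -0.61), and PFKFB2 (0.92) and TIGAR (0.88), which degrades the activator, were higher. Of 8 other glucose and lactate transporters tested in AMO1, 1 was higher and 5 lower with NCP26 than with NCP22 at 24 h, beside 26.3% and 25.7% of all genes, led by the fructose transporter SLC2A5 (-2.85), which also led with HFG against halofuginol (-4.55).

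Of 8 genes that HIF is known to induce and that were tested in AMO1 with NCP26 against DMSO at 6 h, 6 fell, beside 19.2% of all genes, led by HILPDA (-3.59), ANKRD37 (-2.20) and NDRG1 (-2.02), and VEGFA rose (0.34). At 24 h against NCP22, 7 of 9 tested were lower and 2 higher, beside 25.7% and 26.3% of all genes, led by CA9 (-2.28), ANKRD37 (-1.74) and HILPDA (-1.44). Of 6 factors tied to glycolysis, MYC was the 1 that passed at 6 h with NCP26 (-1.08), beside 37.3% of all genes. HIF1A did not pass (0.25, 95% interval -0.059 to 0.56).

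The branches out of glycolysis did not move as 1 group. All 4 genes of serine synthesis and phosphoenolpyruvate formation rose with NCP26 against DMSO in AMO1 at 6 h, namely PSAT1 (1.10), PSPH (1.08), PCK2 (0.68) and PHGDH (0.49), beside 18.1% of all genes that rose. All 4 rose in L363-CFZr as well, beside 9.81% (3.29, 2.29, 2.55 and 1.81 for PSAT1, PSPH, PCK2 and PHGDH). In the pentose phosphate pathway 4 of 7 fell in AMO1 at 6 h, TKT, a transketolase of its later part, among them (-0.62), beside 19.2% of all genes that fell. Of 12 genes of pyruvate entry into mitochondria and its oxidation there 5 fell, led by PDK1 (-0.99) and DLAT (-0.92). PDK1 inhibits pyruvate dehydrogenase, and DLAT is a subunit of that enzyme complex. These 5 stand beside the same 19.2%. ARRDC4, a brake on glucose uptake, was tested only in L363-CFZr among these comparisons and rose with NCP26 (1.05 at 6 h against DMSO, 1.08 at 24 h against NCP22).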

How the data were processed

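Counts were measured in 66 poly(A) RNA-seq libraries, 22 groups of 3 as the labels give them. The authors made the deposited count table by pseudo-alignment with kallisto (31-mers) of directional paired-end reads. The study's methods name GRCh38 and the submitters' processing notes hg19. The kallisto version, annotation and rounding were not given in the sources used here. Of 20167 gene identifiers, 19299 (95.7%) were named from GENCODE v44. Members and lists were chosen with earlier results of these data known, and members were named in every comparison, other genes by the largest called change per list.

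Each comparison used edgeR 4.0.16 in R 4.3.3 (glmQLFit and glmQLFTest) on the libraries of its own groups, with filterByExpr (minimum count 10, minimum total 15), TMM scaling and Benjamini-Hochberg adjustment at 0.05. There were 35 comparisons and 4 added after the data were examined. Gene positions are GRCh38, and 31-mer sharing was counted in GENCODE v44 transcripts. The fits were also run on simulated data with few changed genes and no effect of the set. Those runs do not cover comparisons where many genes changed or sets were crossed. Replicate correlations of log2 CPM ran from 0.938 to 0.992, and no libraries were identical. Alternatives were DESeq2 1.42.0 and its size factors, no filter, all groups in one fit, a replicate block, an offset for GC content, a term for the set and leaving out each library. Same-numbered replicates did not deviate together in every pair of any comparison, so the numbers were not used as pairs. TXNIP was not analysed here, and 1 gene that the naming rule picks is not reported here.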

Additional observations from a re-analysis of the deposited data

Results flagged for a closer look

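These results are listed because the effect of a compound on a member differed between the lines or between the times by a test of the difference itself. Values are differences of log2 fold changes.

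NCP26 against DMSO at 6 h differed between L363-CFZr and AMO1 in SLC2A1 (1.5), HK2 (1.33), PGK1 (0.65) and LDHA (0.54), where a positive value is a smaller fall in L363-CFZr. HFG against DMSO at 24 h differed between the lines in PGK1 (1.47), HK2 (1.33), ENO1 (1.23), PFKL (1.13), SLC2A1 (1.07), LDHA (0.95), SLC2A3 (0.86), PKM (0.75) and ALDOA (0.74). The AMO1 part of the latter crosses library sets.

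The other differences were chosen after the data were examined and lie within sets for each effect. HFG against halofuginol at 24 h differed between the lines in HK2 (1.57), PGK1 (1.39), PFKL (1.17), ENO1 (1.08), SLC2A3 (1.02), SLC2A1 (1.02), LDHA (0.79), PKM (0.64) and ALDOA (0.61). HK1 also passed (2.73), but it entered the test only through AMO1, and with 8 and 6 counts in the L363-CFZr groups its fold there could not be measured. NCP26 against NCP22 at 24 h differed between the lines in PFKL (0.63), PGK1 (0.52), ALDOA (0.45), ENO1 (0.44) and SLC2A3 (-0.41). In AMO1, NCP26 against NCP22 differed between 24 h and 6 h in HK2 (1.87), SLC2A1 (1.84), SLC2A3 (0.87) and LDHA (0.32), and in the other direction in PFKL (-0.47), ALDOA (-0.44) and ENO1 (-0.30). HFG against halofuginol differed between these times in SLC2A1 (1.5), HK2 (0.86) and LDHA (0.18), and in the other direction in HK1 (-1.61), SLC2A3 (-0.93), PFKL (-0.80) and ENO1 (-0.53).

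No group held enough libraries for a test of single outlying libraries.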

How the results depend on the processing

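Counts below are members called, the reported count first. They are not set beside the share of all genes called under the same setting. Whether a shift is particular to the members is therefore not shown here. With an offset for GC content, AMO1 NCP22 at 6 h went from 6 to 2, AMO1 halofuginol at 6 h from 2 to 1, L363-CFZr NCP26 at 6 h from 8 to 5, L363-CFZr halofuginol at 6 h from 5 to 0, the line difference of NCP26 at 24 h from 0 to 1 and AMO1 NCP26 against NCP22 between the times from 7 to 4. DESeq2 gave 4 in place of 0 for AMO1 halofuginol at 24 h, 3 in place of 5 for L363-CFZr halofuginol at 6 h, 1 in place of 0 for L363-CFZr NCP26 at 24 h and AMO1 NCP26 against HFG at 6 h, and 4 in place of 0 for the line difference of NCP26 at 24 h. No filter also gave 1 for AMO1 NCP26 against HFG at 6 h. With all groups of a line in one fit, AMO1 halofuginol at 6 h went from 2 to 0, AMO1 NCP26 against HFG at 6 h from 0 to 1, AMO1 DMSO between the times from 5 to 3, L363-CFZr halofuginol at 6 h from 5 to 2, L363-CFZr NCP26 at 24 h from 0 to 2, L363-CFZr HFG against halofuginol at 24 h from 5 to 1 and NCP26 against HFG from 5 to 2. With all 22 groups the line difference of NCP26 at 24 h went from 0 to 4 and DMSO between the lines at 24 h from 5 to 8. A term for the set, which leans on 1 library of a mixed group in each line, took AMO1 NCP26 at 24 h from 9 to 5 and L363-CFZr halofuginol at 6 h from 5 to 0. The cause of these shifts was not tested.

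With the replicate number as a block, AMO1 halofuginol at 6 h went from 2 to 1, L363-CFZr NCP26 at 6 h from 8 to 4 and the line difference of NCP26 at 6 h from 4 to 2. The block was not run for DMSO between the lines. No paired analysis was possible because the numbers there name libraries of different lines. Among values that passed the threshold in the reported fit or in the alternative, signs turned in 4 cases: with the offset for GC content in PFKL (0.035) and ENO1 (0.0013) of L363-CFZr halofuginol at 6 h, and without L363-CFZr DMSO 24 h replicate 2 in ALDOA with HFG at 24 h (-0.11 to 0.16 over libraries left out) and in LDHA between the lines at 24 h (-0.20 to 0.097). Signs also turned in values that passed in neither. Counts between the lines include HK1, which entered those tests only through AMO1.

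Leaving out 1 library at a time gave ranges of 1 to 6 for AMO1 NCP22 at 6 h (reported 6), 0 to 5 for AMO1 halofuginol at 6 h (2), 3 to 8 for AMO1 CFZ at 24 h (7), 0 to 2 for AMO1 NCP22 at 24 h (0) and for AMO1 NCP26 against HFG at 6 h (0), 4 to 8 for L363-CFZr NCP26 at 6 h (8), 3 to 5 for L363-CFZr halofuginol at 6 h (5), 0 to 4 for L363-CFZr NCP26 at 24 h (0) and the line difference of NCP26 at 24 h (0), 0 to 3 for L363-CFZr HFG at 24 h (0), 3 to 8 for L363-CFZr NCP26 against NCP22 at 6 h (7), 3 to 10 for DMSO between the lines at 24 h (5) and 3 to 6 for AMO1 DMSO between the times (5). The libraries are named in the report.

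With DESeq2's size factors the median of all genes lay between -0.035 and 0.019 log2 in every comparison. Low counts limit what can be said of HK1 in L363-CFZr, where most libraries hold fewer than 3 counts of it.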
